A study of Mus musculus with 26 samples.

Results

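The Nr4a genes Nr4a1, Nr4a2 and Nr4a3 encode the NR4A orphan nuclear receptors, and the rows carrying these 3 symbols were taken from tables of 56941 mouse genes. The family was selected on the measured levels of these genes in the array arm against the biochemical arm, with earlier results of these data known, so the values of that contrast, and of the static array against control within it, are given as a description with no test. RNA was sequenced from neuron spheroids in 26 libraries. The source of every spheroid was the mouse embryonic stem cell line HBG3 (HB9::GFP, a reporter of the motor neuron factor HB9), whose genotype is labelled heterozygous blastocysts. At day 8 of differentiation with retinoic acid and purmorphamine, they were plated on a fibrin platform. In the array arm, spheroids lay on a magnetic silicone array that was moved at 4 Hz for 30 min each day (actuated array, n = 4) or was never moved (static array, n = 4). In the biochemical arm, the groups were labelled high intensity (n = 6), low intensity (n = 6) and control (n = 6). The study's design describes medium from stimulated or unstimulated muscle, but the labels do not tie these media to the 2 intensities, so the groups are named by intensity. The line is a single one, and nothing states that replicates came from separate cultures, so p-values measure only the spread between these samples.

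NR4A proteins are transcription factors that act without a known physiological ligand, so their activity is set largely by how much of them is made. They are immediate early genes, induced quickly and briefly through cAMP, calcium and growth factor signals that act on CREB, MEF2 and SRF. In neurons they are known from activity-dependent transcription, and NR4A2 (Nurr1) is required for midbrain dopaminergic neurons.

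Of the 26 libraries, 21 had at least 1000000 counts on protein-coding genes and entered the tests, with 4 actuated array, 3 static array, 4 high intensity, 5 low intensity and 5 control libraries. Total counts were 7269276 to 13162635 in the array arm and 1551334 to 3971348 in the biochemical arm, so depth and arm cannot be told apart by design. Marker sums are in CPM (counts scaled to library size) by library total, without TMM scaling, while levels of named genes are TMM-scaled CPM unless marked otherwise. All 9 motor neuron markers examined were detected, with a summed level of 580 to 805 CPM in the array arm and 361 to 736 CPM in the biochemical arm. Because these are bulk samples, fewer cells of a type and less RNA per cell cannot be told apart. Summed levels of 10 glial and progenitor markers were 3245 to 4620 CPM in the array arm and 2131 to 4222 CPM in the biochemical arm. For 10 mesenchymal or feeder fibroblast markers they were 205 to 953 CPM and 340 to 2766 CPM. Calls between arms used edgeR's quasi-likelihood test at an adjusted p under 0.05, where 3.11% of all genes were higher and 3.1% lower. Of the 10 glial and progenitor markers 6 were higher and 1 lower, and of the 10 mesenchymal markers 1 was higher and 3 lower. Of 8 tested motor neuron markers 0 were higher and 1 lower. Of 9 general neuron markers 2 were higher and 0 lower. Their summed levels were 9469.5 to 12126.5 CPM in the array arm and 5465 to 9708.5 CPM in the biochemical arm, which overlap. The part of these cell types in the results below was not tested.

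The windows upstream of an annotated start of each of the 3 genes are shown because motifs bound by CREB-family proteins lie there, and CREB is a known activator of the family. They are RefSeq sequences of build GRCm38.p6, printed 5′ to 3′ on the coding strand with the motif matches in capitals. For Nr4a1 (chr15:101266596-101266845, plus strand) the capitals mark TGCGTCA. For Nr4a2 (chr2:57124004-57124253, minus strand) and the 2 stretches of Nr4a3 (chr4:48045070-48045099 and chr4:48045145-48045174, plus strand) they mark TGACG or its reverse complement CGTCA. Only short stretches are shown for Nr4a3, whose annotated exons reach into the window. They leave out its TGACG match 205 bases before the start.
Nr4a1: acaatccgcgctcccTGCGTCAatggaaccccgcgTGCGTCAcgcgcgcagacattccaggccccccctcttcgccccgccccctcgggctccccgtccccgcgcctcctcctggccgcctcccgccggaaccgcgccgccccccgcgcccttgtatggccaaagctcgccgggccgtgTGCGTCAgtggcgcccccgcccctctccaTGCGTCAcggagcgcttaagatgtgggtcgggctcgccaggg
Nr4a2: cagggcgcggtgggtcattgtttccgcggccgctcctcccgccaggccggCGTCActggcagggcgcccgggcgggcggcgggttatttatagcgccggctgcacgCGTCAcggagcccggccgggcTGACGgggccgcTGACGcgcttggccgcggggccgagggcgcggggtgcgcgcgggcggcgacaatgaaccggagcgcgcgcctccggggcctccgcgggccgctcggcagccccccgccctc
Nr4a3, stretch 1: agggTGACGtagcgtcccatgtCGTCAcat
Nr4a3, stretch 2: cctgtggcataaaTGACGtgccgagagagc
Searched on both strands over 250 bases, TGACG matched 4 times in each of the 3 windows, and 0.137% of 32851 promoters held as many. The GC content was 74.4% for Nr4a1, 80% for Nr4a2 and 63.6% for Nr4a3, beside a median of 52.4% over all promoters. TGACG holds a CG pair, and the promoters were not matched for GC content, so these shares do not give its rarity among promoters of like content. At least 1 match was found in 17.8% of promoters. The 4 matches of TGCGTCA in Nr4a1 lay 235, 215, 71 and 42 bases before the start and overlap its TGACG matches. Only 0.00304% of promoters held as many, which is the Nr4a1 window alone. Neither other member had a TGCGTCA match. The full palindrome TGACGTCA (1.55% of promoters) and the NR4A-binding motif AAAGGTCA (1.34% of promoters) were not among the letters of these 3 windows. In GENCODE M21 (GRCm38) the genes span chr15:101254269-101274795 for Nr4a1 (ENSMUSG00000023034), chr2:57106830-57124003 for Nr4a2 (ENSMUSG00000026826) and chr4:48045153-48086447 for Nr4a3 (ENSMUSG00000028341). The Nr4a1 window thus lies within the span of its gene, and stretch 2 of Nr4a3 crosses the start of its gene's span. The build of the deposited tables was not settled from the sources used here, and no coordinate comes from them.

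Nr4a1, which encodes Nur77, was high in 3 array libraries and low in the other 4. Its level was 4.44, 4.32, 31.1 and 28.6 CPM in actuated array replicates 1, 2, 3 and 4. In static array replicates 1, 2 and 4 it was 3.05, 2.68 and 20.8 CPM. Replicates 3 and 4 of the actuated array and replicate 4 of the static array thus stood far above the remaining array libraries, whether the array moved or not. Static array replicate 3, too shallow for the tests, held 11 Nr4a1 counts, or 17.9 CPM by its own total (95% exact Poisson interval 8.95 to 32.1, which covers counting error only). In the biochemical arm the Nr4a1 level was 6.31, 0.811, 4.09 and 3.03 CPM at high intensity (replicates 1, 2, 3 and 6). At low intensity it was 3.87, 4.49, 3.07, 3.16 and 0 CPM (replicates 1 to 5), where the count of 0 allows up to 0.970 CPM. In the controls it was 2.88, 0.350, 6.54, 0.468 and 2.32 CPM (replicates 1, 2, 3, 5 and 6). The 4 low array libraries lay within this biochemical range of 0 to 6.54 CPM, and the 3 high ones lay above all of it. The mean level was 17.1 ± 14.7 CPM on the actuated array (SD, n = 4), 8.85 ± 10.4 CPM on the static array (SD, n = 3), 3.56 ± 2.28 CPM at high intensity (SD, n = 4), 2.92 ± 1.73 CPM at low intensity (SD, n = 5) and 2.51 ± 2.51 CPM in the controls (SD, n = 5). No neighbours in this order differed by more than their spread.

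Nr4a2, which encodes Nurr1, had the smallest range of group means of the 3 members in CPM. Its level was 7.18, 6.57, 3.42 and 3.54 CPM in actuated array replicates 1 to 4. It was 3.73, 4.39 and 1.60 CPM in static array replicates 1, 2 and 4. The 3 array libraries with high Nr4a1 were the lowest of their group for Nr4a2. In the biochemical arm the lowest, median and highest Nr4a2 levels were 1.92, 3.51 and 9.68 CPM (n = 14), a range that held all but 1 of the 7 array libraries. Group means were 5.18 ± 1.98 CPM on the actuated array (SD, n = 4), 4.48 ± 3.0 CPM at low intensity (SD, n = 5), 3.82 ± 1.94 CPM in the controls (SD, n = 5), 3.81 ± 0.803 CPM at high intensity (SD, n = 4) and 3.24 ± 1.46 CPM on the static array (SD, n = 3). Nr4a2 is background for dopaminergic neurons, and of 7 markers of those cells 2 passed the filter on low counts. The summed level of all 7, by library total, was 12.7 to 19.1 CPM in the array arm and 3.52 to 19.9 CPM in the biochemical arm.

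Nr4a3, which encodes NOR1, was high in every array library. Its level was 22.4, 25.9, 21.7 and 21.7 CPM in actuated array replicates 1 to 4. It was 27.6, 32.2 and 18 CPM in static array replicates 1, 2 and 4. Its coefficient of variation was 8.70% on the actuated and 28.0% on the static array. The 3 libraries with high Nr4a1 were the 3 lowest of the 7 for Nr4a3. At low intensity the Nr4a3 level was 27.4, 10.1, 13.6, 12.6 and 10.9 CPM (replicates 1 to 5). At high intensity it was 10.1, 10.5, 4.5 and 4.41 CPM (replicates 1, 2, 3 and 6). In the controls it was 2.88, 1.40, 7.69, 8.89 and 4.93 CPM (replicates 1, 2, 3, 5 and 6). Every low intensity library lay above every control, while high intensity overlapped both. The means ran from 25.9 ± 7.25 CPM on the static array (SD, n = 3) and 23.0 ± 2.0 CPM on the actuated array (SD, n = 4) to 14.9 ± 7.10 CPM at low intensity (SD, n = 5), 7.38 ± 3.39 CPM at high intensity (SD, n = 4) and 5.16 ± 3.15 CPM in the controls (SD, n = 5). In this order no neighbouring groups differed by more than their spread.

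**Figure D1:**
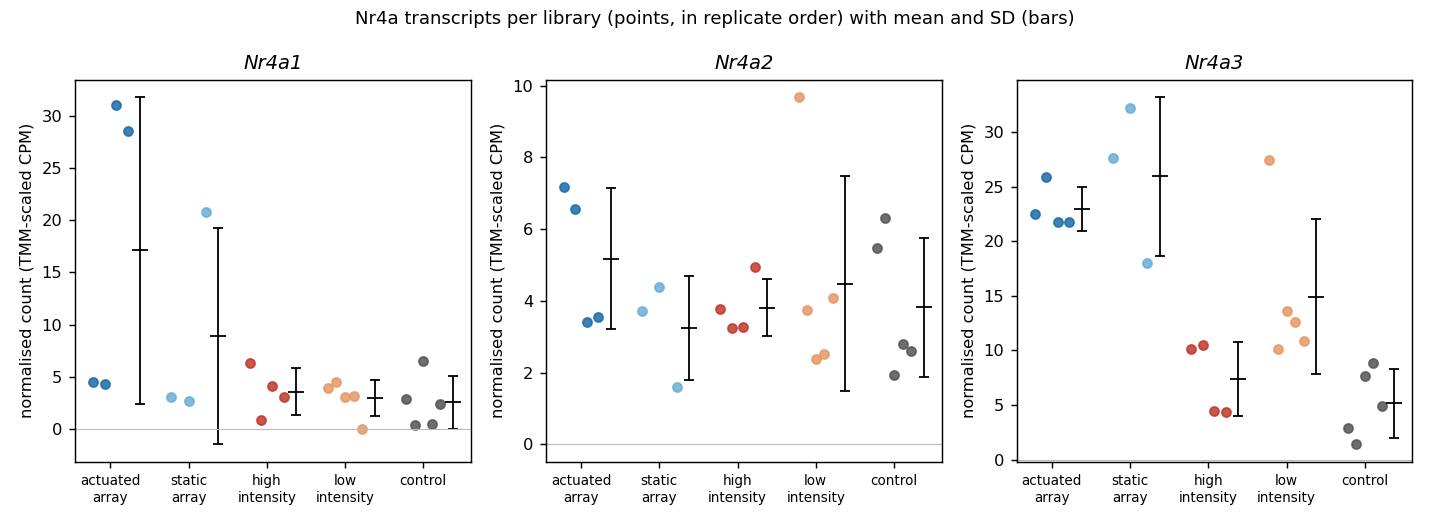
Level of each Nr4a transcript (y axis, TMM-scaled CPM) in the 21 deeper libraries by group, with points in replicate order and bars for mean and SD. Nr4a1 separates into 3 high and 4 low array libraries, while Nr4a3 lies between 18 and 32.2 CPM in all 7.

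Levels were compared between the members only in TPM, which is per transcript length. On the actuated array Nr4a3 stood at 11.9 ± 1.32 TPM, Nr4a1 at 8.13 ± 6.37 TPM and Nr4a2 at 2.26 ± 1.38 TPM (SD, n = 4). In actuated array replicates 3 and 4 the Nr4a1 level was 13.4 and 13.9 TPM, above the Nr4a3 level of 10.9 and 11.4 TPM in the same libraries. In the controls Nr4a3 was at 1.63 ± 1.31 TPM, Nr4a2 at 1.41 ± 0.362 TPM and Nr4a1 at 0.812 ± 0.897 TPM (SD, n = 5), which overlap. The 2 deposited scales did not keep a fixed ratio: TPM over CPM by library total for Nr4a3 ran from 0.248 to 0.566 in the array arm and from 0.10 to 0.848 in the biochemical arm.

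Moving the array was compared with leaving it still, which addresses the mechanical stimulus. None of the 3 members passed the test, and neither did any of the 14730 genes tested (0% called by edgeR's quasi-likelihood test at an adjusted p of 0.05, with 56 genes, 0.38%, at an unadjusted p under 0.05). The number of calls was 5 with DESeq2 and 0 with limma voom. For Nr4a1 the log2 fold change came to 0.96 (SE 0.84, edgeR adjusted p = 1), the Nr4a2 one 0.66 (SE 0.57, edgeR adjusted p = 1) and the Nr4a3 one -0.18 (SE 0.39, edgeR adjusted p = 1). The 95% interval for Nr4a1 was -0.83 to 2.75, and with each library left out its value ran from 0.50 to 2.56, the highest without static array replicate 4. This fit does not pair replicate numbers, although Nr4a1 followed them, and static array replicate 3 is missing from it. By number, the actuated and static Nr4a1 levels were 4.44 and 3.05 CPM (replicate 1), 4.32 and 2.68 CPM (replicate 2) and 28.6 and 20.8 CPM (replicate 4). On the TPM scale the Nr4a3 difference changed sign to 0.28 on log2(TPM + 1), where the median of all genes moved by 0.11.

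The intensity groups were compared with the controls, which addresses the soluble stimulus. These comparisons share their control libraries with the static array contrast that entered the choice of members. At low intensity 0 of 3 members passed, beside 88 of 14730 genes (0.597%). Nr4a3 was 3.0-fold the control level at low intensity, a log2 fold change of 1.59 (SE 0.39, 95% interval 0.77 to 2.40, edgeR adjusted p = 0.0554), just outside the threshold. Its groups did not overlap in 5 against 5 libraries, as for 1.28% of genes in the same direction. Low intensity replicate 1 held the highest Nr4a3 level, and without it the log2 fold change was 1.23 (edgeR adjusted p = 0.179). The adjusted p fell below 0.05 without low intensity replicate 3 (0.0411), control replicate 5 (0.0497), high intensity replicate 3 (0.0384) or high intensity replicate 6 (0.0488). With DESeq2 it was 0.00606, without a filter on low counts 0.000443, on log2(TPM + 1) with limma 0.0254 and on log2(TPM + 0.1) with limma 0.0229, so the call depended on the method. The median of all genes on log2(TPM + 1) was 0.64 higher at low intensity, and the Nr4a3 difference of 1.44 was 0.81 above that median. Nr4a1 (log2 fold change 0.20, SE 0.85, edgeR adjusted p = 0.947) and Nr4a2 (0.25, SE 0.50, edgeR adjusted p = 0.872) did not pass, and both overlapped the controls.

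**Figure D2:**
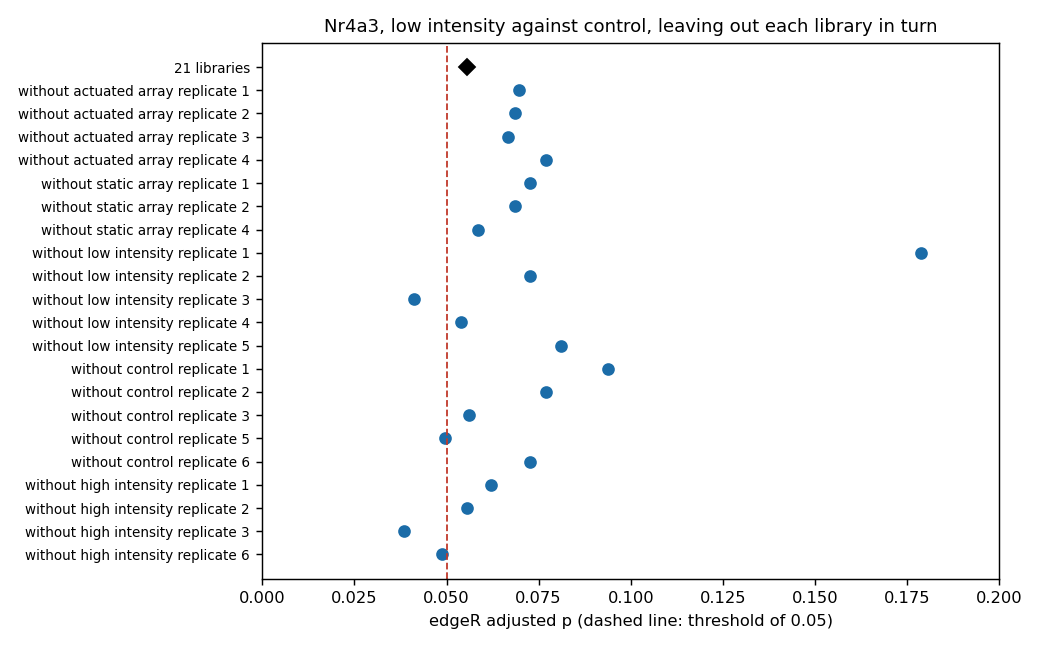
Adjusted p of Nr4a3 at low intensity against control (x axis, dashed line at 0.05) with the 21 libraries (diamond) and with each library left out in turn (circles). Values run from 0.0384 to 0.179, and 4 of the 21 omissions fall below the threshold.

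At high intensity 0 of 3 members passed, beside 68 of 14730 genes (0.462%). The log2 fold change over the controls was 0.56 for Nr4a3 (SE 0.42, edgeR adjusted p = 0.559), 0.52 for Nr4a1 (SE 0.86, edgeR adjusted p = 0.827) and -0.0041 for Nr4a2 (SE 0.53, edgeR adjusted p = 0.999). High against low intensity gave 0 calls among 14730 genes (0%) by edgeR, with 1131 genes (7.68%) at an unadjusted p under 0.05 and 41 genes past the threshold in DESeq2. There Nr4a3 had a log2 fold change of -1.03 (SE 0.40, 95% interval -1.87 to -0.19, unadjusted p = 0.0156, edgeR adjusted p = 0.558). The other 2 members were at 0.32 for Nr4a1 (SE 0.86) and -0.25 for Nr4a2 (SE 0.53), so of the family only the Nr4a3 interval lay apart from 0, which does not show that the members differ.

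The array arm was set beside the biochemical arm as a description. The log2 difference was 2.03 for Nr4a1 (SE 0.52), 0.013 for Nr4a2 (SE 0.36) and 1.56 for Nr4a3 (SE 0.25), where 6.21% of genes were called in either direction. No member separated the 7 array from the 14 biochemical libraries (0.197% of genes did so upward). For Nr4a3 only low intensity replicate 1 lay within the array range. For Nr4a1 3 of the 7 array libraries lay above every biochemical one, and for Nr4a2 0 of the 7 did. Between static array and control, where 0.713% of genes were called, the differences were 1.79 for Nr4a1 (SE 0.85), -0.24 for Nr4a2 (SE 0.56) and 2.37 for Nr4a3 (SE 0.41). Nr4a3 was higher in 3 of 3 static libraries than in every control, as for 4.52% of genes. One library carried the Nr4a1 difference: without static array replicate 4 it was 0.19. Without replicates 3 and 4 of both array groups, a choice made after seeing the data, the Nr4a1 difference between arms was 0.26, and with each library left out it ran from 1.2 to 2.3. With every library thinned to 1551334 counts, the difference between arms was 2.08 for Nr4a1 and 1.43 for Nr4a3. Thinning matched total counts only.

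**Figure D3:**
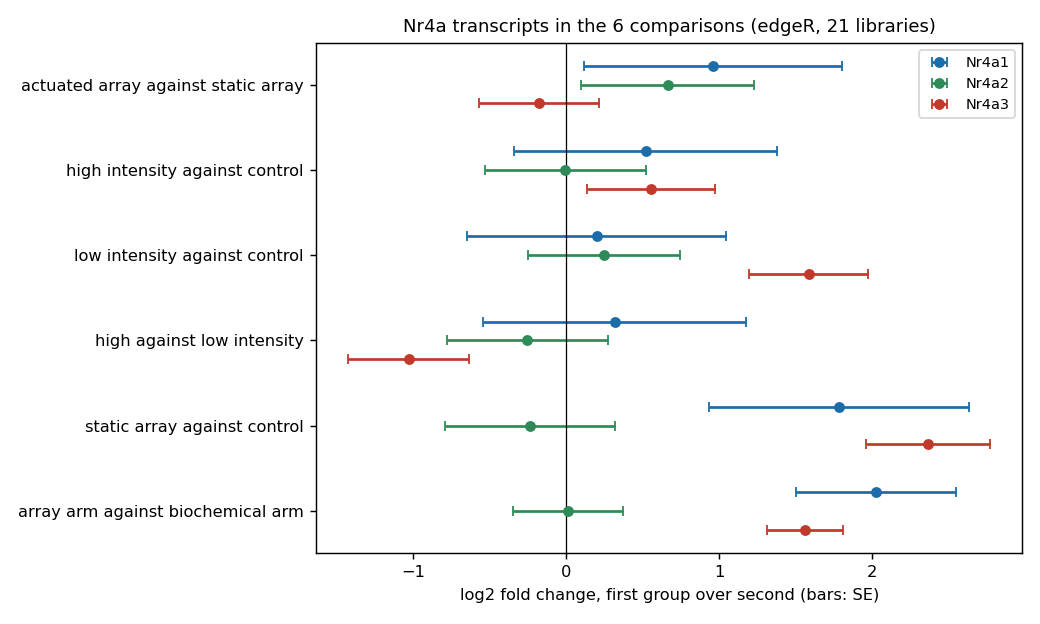
Log2 fold change (x axis, first group over second) of the 3 members in the 6 comparisons, with SE bars. Nr4a2 stays within 0.66 of 0 throughout, and the Nr4a1 bars are the widest in each row.

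The genes that share the cAMP and calcium response were then examined, since they are induced by the same signals as the family. Of 38 listed genes 37 were tested, and between arms 6 were higher and 0 lower (16.2%, beside 6.21% of all genes), with a median log2 fold change of 0.19 beside -0.01 over all genes. This list and those below were chosen with earlier results of these data known. Their shares and p-values between arms are therefore a description. Fos, a subunit of AP-1, was at 26.4, 29.3, 222 and 239 CPM in actuated array replicates 1 to 4 and at 29.6, 35.3 and 162 CPM in static array replicates 1, 2 and 4. Egr1, an immediate early zinc finger factor, was at 10.7, 12.5, 289 and 292 CPM and at 14, 10.5 and 199 CPM in those libraries. The 3 libraries with high Nr4a1 were thus the ones with high Fos and Egr1, in both array groups. Egr3 and Junb, also among the 6 called, were highest in the same libraries, so these calls are not independent of each other. Between arms the log2 fold change was 2.24 for Fos (SE 0.35, edgeR adjusted p = 0.000506) and 2.79 for Egr1 (SE 0.54, edgeR adjusted p = 0.00324). A further fit left out replicates 3 and 4 of both array groups, a choice made after seeing these values. It removes the libraries with high Fos and Egr1, so a fall of both was built into the choice and tests nothing. In that fit 1 of 34 tested genes was called, and the values were 0.54 for Fos (edgeR adjusted p = 0.216) and -0.34 for Egr1 (edgeR adjusted p = 0.750). Fewer of all genes were called in that fit too, as given below with the alternatives. The gene that remained was Nptx2, a secreted neuronal pentraxin, at 40.1 to 65.8 CPM in the 7 array libraries and 18 to 43.9 CPM in the biochemical ones. It differed by 0.75 on the log2 scale with all 21 libraries (SE 0.14, edgeR adjusted p = 0.00222) and 0.88 without those replicates (SE 0.17, edgeR adjusted p = 0.0146). Among the 7 deeper array libraries, Nptx2, like Nr4a3, was lowest in the 3 with high Nr4a1. At low intensity 1 of the 37 genes (2.70%, beside 0.597% of all genes) rose over the controls, the AP-1 subunit Fosl2 (1.10, SE 0.25, edgeR adjusted p = 0.0418). Without those replicates its edgeR adjusted p was 0.0553.

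**Figure D4:**
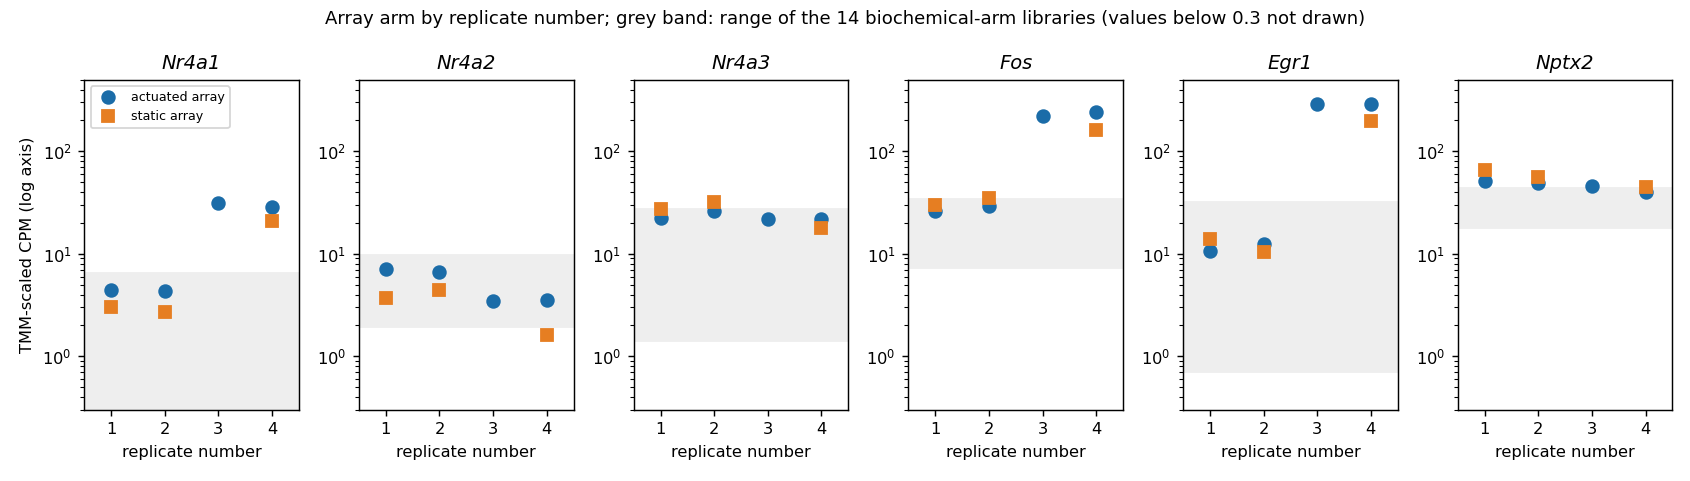
Level (y axis, TMM-scaled CPM, log axis) of the 3 members, Fos, Egr1 and Nptx2 in the 7 deeper array libraries by replicate number, with the range of the 14 biochemical libraries in grey. Nr4a1, Fos and Egr1 are above the grey range in actuated replicates 3 and 4 and static replicate 4. Fos is also just above it in static replicate 2 (35.3 beside 34.4 CPM). In those first libraries Nr4a3 is within its grey range. Nptx2 there is at 46.2, 40.1 and 44.4 CPM, beside an upper end of 43.9 CPM, and is higher in the remaining array libraries.

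Signalling genes upstream of the family were examined next. Of 28 listed CREB and MEF2 input genes 27 were tested, and between arms 2 were higher and 1 lower (11.1% of the list, beside 6.21% of all genes). They were the protein kinase A subunit Prkar2b (0.43, SE 0.11, edgeR adjusted p = 0.0177), the calcineurin subunit Ppp3r1 (0.25, SE 0.069, edgeR adjusted p = 0.0311) and the coactivator Ep300 (-0.27, SE 0.083, edgeR adjusted p = 0.0480). None of the 27 was called without replicates 3 and 4 of both array groups, where fewer of all genes were called too. The 17 tested partners and coregulators include the corepressor Ncor1, the deacetylase Hdac2 and the demethylase Kdm1a. Of these 0 were called between arms, beside 6.21% of all genes. At an unadjusted p under 0.05 by edgeR there were 3 of the 17, beside 21.3% of all genes. Of 15 tested genes known as NR4A targets, 0 were higher and 1 was lower between arms (6.67%, beside 6.21% of all genes). That gene was Star, which carries cholesterol into mitochondria in steroid-making cells (-1.98, SE 0.57, edgeR adjusted p = 0.0378), and without those replicates its adjusted p was 0.209. Of 31 tested other nuclear receptors, 1 was higher between arms (3.23%, beside 6.21% of all genes), the thyroid hormone receptor Thra (0.30, SE 0.084, edgeR adjusted p = 0.0300; 0.151 without those replicates). At low intensity 1 of the 31, the glucocorticoid receptor Nr3c1, rose over the controls (beside 0.597% of all genes called; 0.80, SE 0.17, edgeR adjusted p = 0.0328; 0.0634 without those replicates). Between actuated and static array, 0 genes of any of these 5 lists were called by edgeR, with 0 at an unadjusted p under 0.05. Of all genes 0% were called and 0.38% were at an unadjusted p under 0.05, so these counts are near the background and do not mark the lists.

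Likeness to each member was measured as the root-mean-square difference of centred log2 CPM over the 21 libraries among 11328 genes, a description that shares depth and arm across its points. Among the closest to Nr4a1 were Prss35 (1.00), Id2 (1.08), Cnnm1 (1.09) and Inava (1.11), where Nr4a1's own SD was 1.54. Closest to Nr4a2 were Riok2 (0.409), Slc20a1 (0.422), Bend3 (0.435), Pcdhga5 (0.435) and Nup214 (0.435), with an own SD of 0.566. Closest to Nr4a3 were Kcnmb4 (0.722), Rasgef1b (0.749), H3c7 (0.753), Nudt16l1 (0.758) and Mt2 (0.759), with an own SD of 1.10. The members were kept out of that ranking. Their own distances were 1.75 for Nr4a1 and Nr4a2, 1.47 for Nr4a1 and Nr4a3 and 1.22 for Nr4a2 and Nr4a3. The genes named were picked as the closest of 11328, so their smaller distances do not show that the members are unlike each other. Within the biochemical arm (n = 14), Pearson's r of log2 CPM was -0.142 for Nr4a1 and Nr4a2 (rho -0.248), 0.197 for Nr4a1 and Nr4a3 (rho 0.160) and -0.0883 for Nr4a2 and Nr4a3 (rho -0.248). Permutation p-values of r were 0.632, 0.499 and 0.765 (0.759, 0.749 and 0.765 adjusted over 6 relations), and those of rho were 0.393, 0.585 and 0.391 (0.471, 0.585 and 0.471 adjusted). Without the 2 libraries farthest from the median on the x axis, r was 0.0980, 0.0232 and -0.486. In the array arm the libraries formed separate clusters by Nr4a1, so no pooled correlation is given.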

How the data were processed

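RNA of 26 spheroid libraries was sequenced in pairs of 50-base reads. The authors deposited estimated counts per gene, written as whole numbers, and TPM values that sum to 1000000 per library. Per the submitters' processing notes, BWA 0.7.12-r1039, bedtools 2.25.0, STAR and Salmon were used, with builds mm10, hg19 and GRCm39 named without a role. Groups came from the treatment labels, and no batch is labelled. The members and lists were chosen with earlier results of these data known.

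The main test was edgeR 4.0.16 (R 4.3.3) with its quasi-likelihood F-test, 1 coefficient per group, TMM scaling and filterByExpr, on 21 libraries with at least 1000000 protein-coding counts. It tested 14730 genes, with Benjamini-Hochberg adjustment and a threshold of 0.05, and was tested on simulated data. CPM are TMM-scaled. The other 5 libraries were left out for depth or rRNA (static array replicate 3, low intensity replicate 6, control replicate 4 and high intensity replicates 4 and 5) and enter 1 alternative. Alternatives were DESeq2 1.42.0, DESeq2 size factors, limma 3.58.1 (voom with quality weights, and log2 TPM with a pseudocount of 1 or 0.1), no filter, thinning, the groups compared alone, the replicate number as a block and each library left out. Thinning used a binomial draw for each count. It replaced the thinning function of edgeR, which had been run first and which, on simulated counts, gave 5.84 times the binomial variance, against 0.992 times for the draw. The arms also differ in depth, which cannot be told apart from the culture format. Named genes were the members, up to 4 genes of each list (those called, by smallest p, or those of highest level) and the 5 genes of at least 5 CPM closest to each member in profile, of which some are not reported here. Fosl2, Rorb and Junb fall outside that rule and were chosen after their values were seen. Promoter sequences are RefSeq's, with 3 of 3 members matched by symbol. Depth limits precision: a count of 0 allowed 0.228 to 0.413 CPM in the 7 deeper array libraries and 0.755 to 1.93 CPM in the 14 deeper biochemical ones (3 counts of the total).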

Additional observations from a re-analysis of the deposited data

Results flagged for a closer look

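In 12 groups of 4 to 10 values, a value was marked when its gap to the nearest other was large for the range of its group, which chance alone gives in about 1 of 20 groups. This marked the Nr4a2 level of 9.68 CPM and the Nr4a3 level of 27.4 CPM in low intensity replicate 1, and the Nr4a3 level of 25.9 CPM in actuated array replicate 2, where the other 3 libraries lay within 1 CPM of each other.

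Libraries outside the tests also held counts of the members. Static array replicate 3 had 11 Nr4a1 counts (17.9 CPM by total) and 30 Nr4a3 counts (48.9 CPM by total). Low intensity replicate 6 had 5 Nr4a3 counts of a total of 1536 (3255 CPM by total, 95% exact Poisson interval 1057 to 7597), which is too shallow to set beside the others.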

How the results depend on the processing

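Nr4a3 was higher at low intensity than in control in every alternative run, from 1.31 to 2.03 on the log2 scale, or 1.23 to 1.85 with each library left out. Its value past the threshold was 1.59 without a filter, 1.58 with DESeq2, 1.44 on log2(TPM + 1) and 2.03 on log2(TPM + 0.1). The adjusted p was 0.284 with limma voom. With edgeR it was 0.116 when thinned, 0.204 with the groups compared alone and 0.228 with all 26 libraries. It was 0.30 with the thinning function of edgeR that was first used. Nr4a2 at high intensity against control, near 0, turned to 0.022 without a filter, 0.31 with voom, 0.27 and 0.39 on log2 TPM with a pseudocount of 1 and 0.1, 0.0018 without array replicates 3 and 4 and 0.080 without control replicates 2 and 3 (both chosen after seeing the data). Nr4a2 between intensities turned to 0.040 with voom, and Nr4a3 between array groups to 0.28 and 0.33 on the TPM scales. Without array replicates 3 and 4, Nr4a1 fell to 0.19 for static array against control and 0.26 between arms. The correlation of Nr4a1 and Nr4a2 turned to 0.595 with all 26 libraries, 0.242 on log2(TPM + 1) and 0.0980 without 2 libraries, that of Nr4a1 and Nr4a3 to -0.0030 with all 26 and that of Nr4a2 and Nr4a3 to 0.134 on log2(TPM + 1). The causes were not tested.

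With each library left out, the log2 fold change ran from -0.17 to 0.24 for Nr4a2 at high intensity against control, from -0.080 to 0.85 for Nr4a1 and -0.26 to 0.50 for Nr4a2 at low intensity against control, from -0.13 to 0.62 for Nr4a1 and -0.41 to 0.26 for Nr4a2 between intensities, from -0.38 to 0.010 for Nr4a3 between array groups and from 0.19 to 2.44 for Nr4a1 for static array against control.

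Counts of called genes moved more than the members did. In the order high intensity, low intensity and static array (each against control) and arm against arm, the main counts were 68, 88, 105 and 914. They were 6, 4, 2 and 16 with all 26 libraries; 700, 660, 459 and 1670 without a filter; 467, 471, 381 and 1422 with DESeq2; 2324, 5440, 1091 and 180 on log2(TPM + 1); 2292, 5537, 1145 and 136 on log2(TPM + 0.1); and 24, 22, 16 and 151 without array replicates 3 and 4. On log2(TPM + 1), 2315 of the 2324 and 5423 of the 5440 calls were higher, beside 45 of 68 and 65 of 88. The groups compared alone gave 17, 21 and 42 for the first 3 comparisons. Voom gave 0, 1 and 2057 for high intensity, low intensity and the arms. Without control replicates 2 and 3 the counts were 9 at high and 38 at low intensity. Between array groups 40 genes were called without a filter and 5 with DESeq2. Between intensities there were 126 without a filter, 41 with DESeq2, 2 and 1 on the TPM scales and 2 without array replicates 3 and 4. With each library left out the counts were 0 to 397 at high intensity against control, 2 to 264 at low intensity against control (2 without low intensity replicate 1), 0 to 3 between intensities, 18 to 141 for static array against control (18 without static array replicate 4) and 390 to 1074 between arms. Nr4a2 failed the filter when thinned, and Nr4a1 failed it at low intensity against control with the groups compared alone, so neither has a value there.

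Replicate numbers were not taken to pair the samples, although Nr4a1, Fos and Egr1 followed the number in both array groups. Across genes, deviations of same-numbered libraries correlated at -0.116 to 0.182 in the array arm (3 pairs) and -0.225 to 0.0692 in the biochemical arm (11 pairs), and 4 of 6 array libraries correlated best with their own number. With the replicate block the counts were 2, 8, 36 and 497 in the order above, Nr4a2 at high intensity turned to 0.054, and the adjusted p of Nr4a3 at low intensity was 0.164 by edgeR. The array groups alone with the block gave 3 calls.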

Other observations

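At low intensity against control without array replicates 3 and 4, the nuclear receptor called by edgeR was Rorb (1.13, SE 0.21, adjusted p = 0.0301), which was not called with all 21 libraries. Junb, an AP-1 subunit, was at 1.35 between arms (SE 0.37, edgeR adjusted p = 0.0281) and at 0.11 without those replicates (SE 0.40, edgeR adjusted p = 0.952). The left-out libraries held its highest levels, so this fall was built into the choice.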
